A study of Mus musculus with 24 samples.

Results

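Exosome-enriched fractions (EEFs) from the hippocampus of PBS-injected mice were compared between 2 weeks and 24 h after the injection, to find what changes in vesicle miRNAs over that interval without seizures. The samples were the 12 PBS control libraries of 24 in the series, chosen by the labels of injected compound and time, 6 at 2 weeks and 6 at 24 h. At each time, 3 libraries came from ultracentrifugation (UC) and 3 from a precipitation kit (ExoQuick). All mice were male C57BL/6 (C57BL/6OlaHsd in the study's methods), aged 6 to 9 weeks, with electrodes and a guide cannula fixed under isoflurane, and received 0.2 µl PBS into the basolateral amygdala in place of kainic acid (KA). The methods describe midazolam to end seizures and do not state whether PBS mice received it. Each library pooled 5 hippocampi with UC and 4 with the kit, so the spread between libraries is that between pools and not between mice. The stated age is not tied to surgery or to killing, no dates of preparation are given, and no uninjected mice were sequenced. Recovery from the injection, age and any difference in preparation therefore cannot be told apart.

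MiRNAs are short RNAs, cut as a pair of arms (5p and 3p) from a hairpin, that pair with messenger RNAs through the seed, bases 2 to 8, and lower the output of those messages. Part of the miRNA of a cell leaves it inside vesicles, where the membrane shields it from RNase. In the brain, miR-124 and miR-9 mark neurons, miR-219 and miR-338 mark oligodendrocytes, and miR-21 and miR-146 are induced in glia by injury and inflammation. The PBS mice serve as the time-matched baseline for seizures, so a change among them over time bears on comparisons of KA mice between the 2 times.

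The sequences below are RefSeq mature miRNAs on GRCm38.p6, found for 74 of the 83 miRNAs looked up, written 5′ to 3′ with the seed in capitals. The first set is shown because let-7 miRNAs were the group with the most members at a low p-value, and it holds its 7 members under the unadjusted threshold, of which let-7f-5p, let-7a-5p and let-7e-5p share 1 seed.
let-7f-5p: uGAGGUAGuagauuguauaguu
let-7a-5p: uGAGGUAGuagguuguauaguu
let-7e-5p: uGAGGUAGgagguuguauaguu
let-7j: uGAGGUAUuaguuugugcuguuau
let-7c-2-3p: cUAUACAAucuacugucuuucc
let-7f-2-3p: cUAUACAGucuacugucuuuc
let-7c-1-3p: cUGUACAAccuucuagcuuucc
Let-7f-5p and let-7a-5p had the same base at 21 of 22 positions, as did let-7a-5p and let-7e-5p, and let-7c-2-3p and let-7f-2-3p at 20 of 21. Let-7j matched let-7i-5p at 21 of 22 positions. How the authors' counting split reads between such near copies is not stated, so each of these counts is uncertain as to the copy. Let-7f-5p comes from hairpins at chr13:48537829-48537917 (minus strand, in an exon of the noncoding 6720427I07Rik) and chrX:151912346-151912428 (plus strand, in an intron of Huwe1), which cannot be told apart by the mature sequence. The let-7c-2 hairpin lies at chr15:85706603-85706697 (plus strand) in an exon of the noncoding Lncppara. Whether another let-7 hairpin gives the same 3p sequence was not examined, so the let-7c-2-3p reads are not tied to this hairpin.

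The second set holds the other miRNAs of at least 1000 CPM with a low p-value, the rarer miR-369-3p, both arms of the miR-21a and miR-338 hairpins, and the miRNAs that differed most between methods or from KA mice.
miR-27b-3p: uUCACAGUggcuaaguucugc
miR-434-3p: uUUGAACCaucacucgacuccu
miR-873a-5p: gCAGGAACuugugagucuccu
miR-369-3p: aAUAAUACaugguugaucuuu
miR-204-5p: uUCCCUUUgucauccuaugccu
miR-338-5p: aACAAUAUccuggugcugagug
miR-338-3p: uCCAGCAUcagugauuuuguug
miR-21a-5p: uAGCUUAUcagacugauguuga
miR-21a-3p: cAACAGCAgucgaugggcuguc
miR-361-5p: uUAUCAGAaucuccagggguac
miR-146a-5p: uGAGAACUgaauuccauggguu
Their hairpins lie at chr13:63300712-63300784 (miR-27b), chr12:109594506-109594599 (miR-434, antisense to an exon of Rtl1) and chr12:109743418-109743496 (miR-369, in the noncoding Mirg). MiR-873a is at chr4:36668510-36668586 in an intron of Lingo2. MiR-204 is at chr19:22750605-22750672 in an intron of Trpm3, miR-338 at chr11:120014765-120014862 in an intron of Aatk, and miR-21a at chr11:86584067-86584158 in an exon of Vmp1. MiR-361 is at chrX:113074824-113074893 in an intron of Chm, and miR-146a at chr11:43374397-43374461 outside the annotated genes.

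Depth was between 85436 and 169639 reads with UC and between 154884 and 423895 with the kit, so that 1 read was worth 5.89 to 11.7 CPM (counts scaled to a common library total) with UC and 2.36 to 6.46 with the kit. Neuron markers summed to 40900 to 73800 CPM in every library, and muscle and liver markers to at most 28.0 CPM. Total reads, miRNAs detected, the share of the 3 most abundant miRNAs and the share of reads with an altered base or end were compared between times with exact permutation tests within method, and their p-values were 0.48, 0.32, 0.29 and 0.985. Along the first principal component, which held 30.5% of the variance with UC and 28.5% with the kit, kit 24 h library 2 stood apart from the other kit libraries (23.7 against -10.9 to -1.05), and it was also the shallowest of them.

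No miRNA passed an adjusted p-value of 0.05 between 2 weeks and 24 h when both methods were fitted together (edgeR's quasi-likelihood test with method as a covariate, 466 miRNAs with at least 1 read in 6 of the 12 libraries), and the lowest adjusted p-value was 0.673. At an unadjusted p-value under 0.05, the threshold used by the study, 30 of the 466 passed (6.44%), of which 21 (4.51%) were higher and 9 (1.93%) lower at 2 weeks. Limma-voom counted 31 and DESeq2 22, and neither gave a miRNA past adjustment. The split into higher and lower miRNAs was 18 and 10 with RLE factors and 13 and 14 with library size only, which change only the scaling. It was 11 and 11 with DESeq2, and 2 and 13 when at least 10 reads were required in 6 of the 12 libraries. Without kit 24 h library 2, 13 were higher and 8 lower. Over all 466 miRNAs the median log2 fold change was 0.04, and 250 (53.7%) lay above 0.

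The 2 methods, whose libraries are separate pools, were then compared with each other. Of the 24 miRNAs at an unadjusted p-value under 0.05 with UC and the 19 with the kit, 0 were shared, which is 0.0% of each list. Among those measured with the other method, 17 of 23 UC miRNAs and 7 of 13 kit miRNAs had the same sign there. The same-sign share of all miRNAs tested with both methods was not counted, so no agreement is read from these counts. Across the 414 miRNAs tested in both, the log2 fold changes had a Spearman correlation of 0.15 and a Pearson correlation of 0.09, and across the 71 with at least 1000 CPM these were 0.06 and 0.08. MiRNAs within a library share its depth and scaling and are not independent. The levels at 2 weeks and 24 h were fully separated in 44 of 466 miRNAs with UC (9.44%) and in 41 with the kit (8.80%), and in 0 with both.

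**Figure D1:**
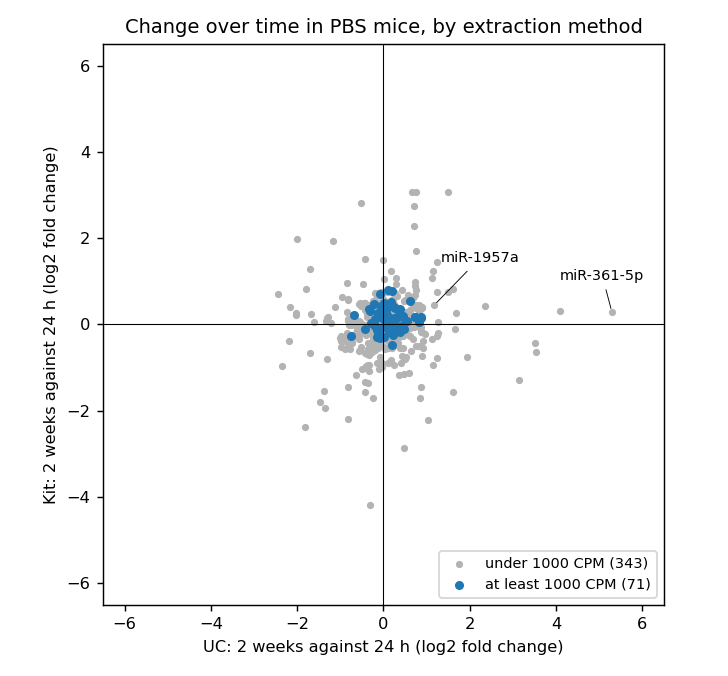
Log2 fold change of each miRNA between 2 weeks and 24 h in PBS mice with UC (x axis) and with the kit (y axis), for the 414 miRNAs tested with both, with the 71 of at least 1000 CPM in blue. The abundant miRNAs gather around 0 on both axes, and miR-361-5p, with 0 reads in the 24 h UC libraries, lies far to the right with a kit value near 0.

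The abundant miRNAs were the most precisely measured and gave narrow intervals around small differences. The 71 with a mean of at least 1000 CPM held 94.95% of the reads, and for 70 of them the 95% interval of the fold change lay within 1 log2 unit of 0, with a median half-width of 0.41 against 0.85 over all 466. The most abundant, miR-127-3p, an imprinted brain miRNA, had 314492, 269145 and 339231 CPM at 24 h and 211570, 309529 and 164112 at 2 weeks with UC, and 128500, 94908 and 117393 against 78467, 146174 and 96228 with the kit. The groups overlapped within each method, and its log2 fold change was -0.24 (95% interval -0.62 to 0.15). MiR-181a-5p followed with 0.12 (-0.23 to 0.47), miR-22-3p with 0.30 (-0.11 to 0.71) and miR-30a-5p with 0.21 (-0.14 to 0.56). Of these abundant miRNAs, 7 had an unadjusted p-value under 0.05, namely let-7f-5p, let-7a-5p, let-7e-5p, miR-27b-3p, miR-434-3p and miR-873a-5p (0.50, named after its value was seen), which were higher at 2 weeks, and miR-204-5p, which was lower. None of these differences passed adjustment, and the largest was 0.60.

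**Figure D2:**
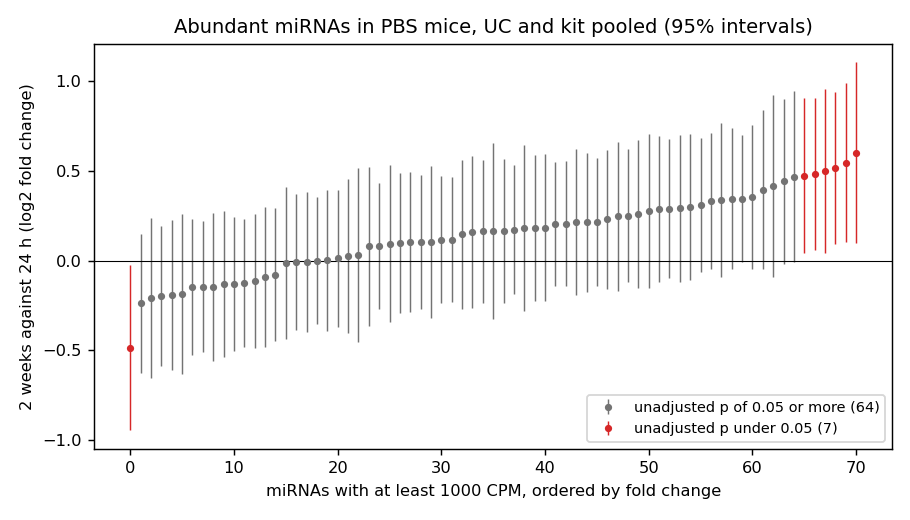
Log2 fold change between 2 weeks and 24 h with its 95% interval for the 71 miRNAs of at least 1000 CPM, ordered by fold change, with both methods fitted together. The 7 red points have an unadjusted p-value under 0.05, and 70 of the 71 intervals stay within 1 log2 unit of 0.

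Let-7 miRNAs, which rise as cells differentiate and whose processing is held back by Lin28 in progenitors, were the group with the most members at a low p-value. Of 22 listed names, 21 had a read and 20 were tested. At an unadjusted p-value under 0.05, 6 of 20 were higher (4.51% of all 466), 1 was lower (1.93% of all), and 15 of 20 lay above 0 (53.7% of all), with a median log2 fold change of 0.26 against 0.04 over all miRNAs. With UC the median was 0.38 and with the kit 0.14. The counts were 6 higher and 1 lower with RLE factors, 4 and 1 with library size only or limma-voom, 3 and 0 with DESeq2, and 2 and 0 of 15 tested with the filter at 10 reads, and the median stayed between 0.18 and 0.26 in these settings. The summed level of the list was 36600, 58100 and 38100 CPM at 24 h and 48500, 68800 and 69300 at 2 weeks with UC, and 153000, 109000 and 129000 against 176000, 146000 and 113000 with the kit. These sums overlapped between times in both methods, and the kit libraries held more let-7 than the UC libraries at either time.

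Let-7f-5p, the most abundant of the family, had 4864, 10965 and 5087 CPM in the 24 h UC libraries and 8785, 14578 and 15518 at 2 weeks. UC 24 h library 2, the highest at that time, lay above the lowest one at 2 weeks, so the groups overlapped. With the kit it had 74269, 41442 and 48668 CPM against 83206, 59212 and 44356, with overlap. Over both methods the log2 fold change was 0.55 ± 0.22 (SE; edgeR, unadjusted p = 0.0172, adjusted p = 0.673), 0.88 ± 0.25 with UC (adjusted p = 0.0532) and 0.15 ± 0.26 with the kit (adjusted p = 0.973). The UC value passed adjustment with RLE factors (0.0353), library size only (0.0360) and limma-voom (0.0304) but not with DESeq2 (0.883) or in the fit of all 12 UC libraries (0.883). It was 1.42 (adjusted p = 0.0048 in edgeR) without UC 24 h library 2, 1.11 (0.00571) without UC 2-week library 1, and 0.67 to 0.79 without each of the other 4, where it did not pass. The kit minus UC difference was -0.74, with an unadjusted p of 0.0857 in edgeR's interaction test. The pooled value fell to 0.41, 0.40 and 0.47, with unadjusted p-values of 0.0858, 0.0672 and 0.0567, without UC 24 h library 1, UC 24 h library 3 or UC 2-week library 3.

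Let-7c-2-3p, named for the passenger arm of a let-7c hairpin, was the miRNA with the lowest p-value over both methods. It had 446, 855 and 949 CPM at 24 h and 923, 1326 and 1108 at 2 weeks with UC, and 310, 166 and 300 against 452, 509 and 305 with the kit. In each method a single library kept the groups from separating. The fitted log2 fold change was 0.65 ± 0.23 (edgeR, unadjusted p = 0.00662, adjusted p = 0.673), with 0.57 ± 0.29 for UC and 0.67 ± 0.33 for the kit. It kept an unadjusted p-value under 0.05 without any 1 of the 12 libraries (0.53 to 0.72) and in all 8 other settings tried. Of its reads, 75.1% carried a changed or added base at an end or within.

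Let-7f-2-3p, the matching arm of the X-linked hairpin, had 70.9, 147 and 183 CPM at 24 h and 218, 223 and 236 at 2 weeks with UC, where the groups did not overlap, and 54.1, 27.7 and 103 against 84.0, 114 and 107 with the kit, where they did. An altered base or end was present in 89.3% of the let-7f-2-3p reads, and its sequence matched let-7c-2-3p at 20 of 21 positions. Its log2 fold change was 0.73 ± 0.30 (edgeR, adjusted p = 0.673). Without kit 24 h library 2, kit 2-week library 2 or UC 24 h library 1 it was 0.60, 0.66 and 0.59, each with an unadjusted p just above 0.05 in edgeR (0.054, 0.0536 and 0.0583). Let-7a-5p and let-7e-5p, chosen after their values were seen, had log2 fold changes of 0.48 ± 0.21 and 0.47 ± 0.21 (edgeR, adjusted p = 0.706 and 0.731). With UC alone these were 0.73 and 0.73, and with the kit 0.18 and 0.17. Both passed the unadjusted threshold in 9 and 6 of the 12 fits that leave out 1 library.

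The other let-7 members with a low p-value were rare. Let-7j had 0 or 1 read in the 9 libraries other than the kit libraries at 2 weeks, and 3, 13 and 3 reads in those. Its log2 fold change was 2.22 ± 0.80 (edgeR, adjusted p = 0.673), and 1.53 with an unadjusted p of 0.0869 without kit 2-week library 2. Let-7c-1-3p, the passenger arm of the other let-7c hairpin, went the opposite way, with 1, 1 and 4 reads at 24 h and 0, 1 and 1 at 2 weeks with UC, and 4, 1 and 2 against 0, 0 and 2 with the kit. The value was -1.62 ± 0.78 (edgeR, adjusted p = 0.731), and 6 of the 12 fits without 1 library kept it under the unadjusted threshold. The more abundant let-7c-5p and let-7i-5p, also named after their values were seen, had log2 fold changes of 0.25 ± 0.18 and 0.21 ± 0.17, with unadjusted p-values of 0.177 and 0.238 in edgeR.

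MiR-27b-3p, processed from the miR-23b, miR-27b and miR-24 hairpin cluster, had log2 fold changes of 0.19 with UC and 0.78 with the kit, and the difference between them was 0.57 (edgeR, unadjusted p = 0.166). With UC it had 13427, 17233 and 20970 CPM at 24 h and 16940, 23971 and 18064 at 2 weeks, and with the kit 29412, 13544 and 34866 against 35430, 66670 and 32904. Each kit group held 1 library far from the other two, a low one at 24 h and a high one at 2 weeks, and the groups overlapped in both methods. The log2 fold change was 0.52 ± 0.21 (edgeR, unadjusted p = 0.0176, adjusted p = 0.673). It was 0.34 without kit 24 h library 2 and 0.27 without kit 2-week library 2, with unadjusted p-values of 0.0659 and 0.179.

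MiR-434-3p, transcribed antisense to the imprinted gene Rtl1, had the largest fold change among the abundant miRNAs. With UC it had 4682, 5160 and 7734 CPM at 24 h and 11066, 8802 and 6651 at 2 weeks, and with the kit 28925, 4358 and 18314 against 35638, 25523 and 14738. Groups overlapped with both methods, and kit 24 h library 2 held the lowest kit value. Over both methods the log2 fold change was 0.60 ± 0.25 (edgeR, unadjusted p = 0.0203, adjusted p = 0.673), 0.61 with UC and 0.54 with the kit. It was 0.40 without kit 24 h library 2 and 0.53 without UC 24 h library 1, with unadjusted p-values of 0.0505 and 0.0627. Of the 15 tested members of the Rtl1-antisense cluster it was the only one under the unadjusted threshold, and 8 of 15 lay above 0 (median 0.12).

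MiR-369-3p, from the imprinted miR-379 to miR-410 cluster, had 101, 147 and 199 CPM at 24 h and 135, 276 and 195 at 2 weeks with UC, and 725, 188 and 441 against 1164, 671 and 573 with the kit. Its log2 fold change was 0.69 ± 0.28 (edgeR, unadjusted p = 0.0178, adjusted p = 0.673), and 0.47 and 0.48 without kit 24 h library 2 or kit 2-week library 1, with unadjusted p-values of 0.0773 and 0.0857. Of the 48 tested members of the cluster, 2 (miR-369-3p and the rare miR-543-3p) were higher under the unadjusted threshold, near the 4.51% of all miRNAs, 0 were lower, and 23 lay above 0 (median -0.04 against 0.04 over all).

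**Figure D3:**
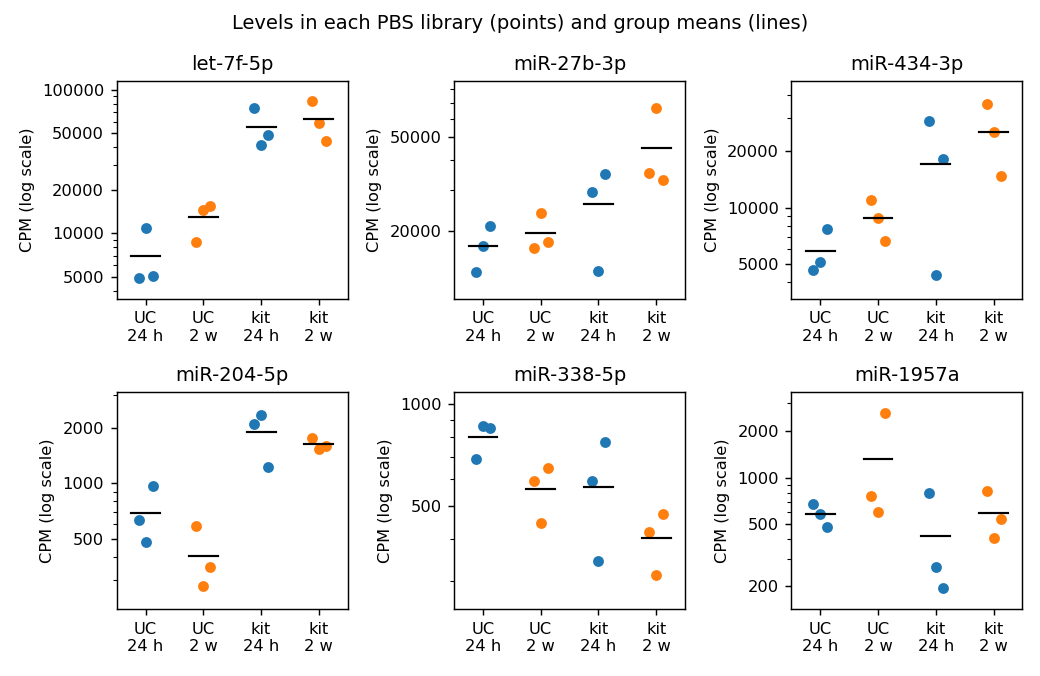
CPM of 6 miRNAs on a log scale in each PBS library (points, 24 h in blue and 2 weeks in orange) with the mean of each group of 3 (lines). Groups of the same method overlap for all but miR-338-5p with UC, and the miR-1957a difference with UC rests on 1 library at 2607 CPM.

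Among the miRNAs that were lower at 2 weeks, miR-338-5p and miR-204-5p were the best covered. MiR-338-5p, from a hairpin abundant in oligodendrocytes, had 689, 862 and 853 CPM at 24 h and 593, 446 and 647 at 2 weeks with UC, without overlap, and 592, 344 and 775 against 420, 313 and 474 with the kit, with overlap. The fitted log2 fold change was -0.50 ± 0.22 (edgeR, unadjusted p = 0.0273, adjusted p = 0.706) and was similar in both methods (-0.52 and -0.52). It was under the unadjusted threshold in all 8 other settings but not without kit 24 h library 3 (-0.38), kit 2-week library 2 (-0.46), UC 24 h library 2 (-0.47) or UC 2-week library 2 (-0.44). Its opposite arm, miR-338-3p, had a log2 fold change of 0.21 ± 0.20 (edgeR, unadjusted p = 0.291).

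MiR-204-5p, which is strongly expressed in the choroid plexus, had 628, 477 and 965 CPM at 24 h and 585, 276 and 349 at 2 weeks with UC, and 2089, 2351 and 1231 against 1756, 1527 and 1602 with the kit. Levels overlapped in both methods. The log2 fold change was -0.48 ± 0.23 (edgeR, unadjusted p = 0.0402, adjusted p = 0.731), and it lay between -0.49 and -0.32, with unadjusted p-values of 0.0521 to 0.181, without each of kit 24 h library 2, UC 24 h libraries 1 and 3 and UC 2-week libraries 2 and 3. Of the 13 tested choroid plexus miRNAs, miR-1912-3p, from an intron of Htr2c, was higher (1.40 ± 0.59, edgeR adjusted p = 0.673, 0 to 18 reads), miR-204-5p lower, and 7 lay above 0 (median 0.04).

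MiR-21a-3p, the minor arm of the injury-induced miR-21a hairpin, had 152, 189 and 199 CPM at 24 h and 67.5, 118 and 133 at 2 weeks with UC, where the groups did not overlap. With the kit it had 86.6, 33.3 and 57.0 CPM against 44.0, 45.5 and 33.0, from 6 to 24 reads. Over both methods the log2 fold change was -0.65 ± 0.32 (edgeR, unadjusted p = 0.0462, adjusted p = 0.731), and it was under the unadjusted threshold in only 4 of the 12 fits without 1 library, those without UC 24 h library 1, UC 2-week library 3, kit 24 h library 2 or kit 2-week library 2 (range of all 12, -0.76 to -0.51). The major arm, miR-21a-5p, had 1865, 2412 and 2424 CPM against 2656, 3157 and 3438 with UC, again without overlap but upward. With the kit it had 5506, 2378 and 4452 CPM against 3895, 5678 and 4581, and over both methods 0.35 ± 0.19 (edgeR, unadjusted p = 0.0819).

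Most of the remaining miRNAs under the unadjusted threshold rested on few reads. Of the 30, 13 averaged less than 50 CPM, 9 of them higher at 2 weeks. MiR-30b-3p, the minor arm of a miR-30 hairpin, had 5, 11 and 5 reads at 24 h and 2, 2 and 0 at 2 weeks with UC, and 1, 1 and 5 against 2, 1 and 1 with the kit. Its log2 fold change was -1.74 ± 0.62 (edgeR, adjusted p = 0.673), and it was under the unadjusted threshold in all 12 fits without 1 library (-2.02 to -1.45). MiR-144-3p, an erythroid miRNA, had 0 to 6 reads in 11 libraries and 37 in kit 2-week library 2, and its log2 fold change of 1.92 ± 0.76 became 0.24 (edgeR, unadjusted p = 0.776) without that library, and 1.53 and 1.53 (0.0598 and 0.0723) without kit 24 h libraries 2 or 3. The same library held 41 of the reads of miR-451a, also an erythroid miRNA, which had 0 to 11 elsewhere, although the mice were perfused to clear blood.

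With UC alone, 24 of 455 miRNAs had an unadjusted p-value under 0.05 (5.27%), 15 higher (3.30%) and 9 lower (1.98%), and 1 passed adjustment (0.220%). This was miR-1957a, which had 67, 83 and 60 reads (a mean of 580.0 ± 100.0 CPM, SD) at 24 h and 102, 92 and 254 reads (765, 604 and 2607 CPM) at 2 weeks. The high value belonged to 1 library, UC 2-week library 3, the shallowest of all, and the other 2 lay close to the 24 h range. The fitted log2 fold change was 1.17 ± 0.29 (edgeR, adjusted p = 0.0262), and 0.30 with an adjusted p of 0.973 without that library. The estimated spread was common to all miRNAs in this fit (1820 degrees of freedom), so the spread of 1113 CPM (SD) among the 2-week libraries counted little. Adjusted p-values were 0.883 with DESeq2, 0.43 with limma-voom and 0.828 when all 12 UC libraries entered the fit, and they were 0.0889, 0.4 and 0.506 without UC 24 h libraries 1, 2 or 3. With the kit the value was 0.45 ± 0.44 (edgeR, adjusted p = 0.954). An altered base or end was present in 99.7% of its reads.

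With the kit alone, 19 of 523 miRNAs had an unadjusted p-value under 0.05 (3.63%), 12 higher (2.29%) and 7 lower (1.34%), and 0 passed adjustment with edgeR, limma-voom or DESeq2 (lowest adjusted p = 0.952 in edgeR). The lowest p belonged to miR-15a-5p, which restrains the cell cycle. It had 198, 155 and 209 CPM at 24 h and 440, 392 and 284 at 2 weeks with the kit, without overlap. The kit log2 fold change was 0.95 ± 0.32 (edgeR, unadjusted p = 0.00908). With UC it had 40.5, 238 and 112 CPM against 37.5, 328 and 123, with full overlap and a log2 fold change of 0.29 ± 0.44. The rare miR-92a-1-5p, second in the list, had 1, 4 and 2 reads at 24 h and 0 at 2 weeks, so that it entered the test only through the group where it was high, and no p is given for it. Let-7j was the third.

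The difference of the time effect between the methods was tested directly, and 15 of 466 miRNAs had an unadjusted p-value under 0.05 (3.22%), 6 with a higher kit than UC value (1.29%) and 9 with a lower one (1.93%), and 0 passed adjustment (lowest adjusted p = 0.627 in edgeR). MiR-361-5p, from an intron of Chm, came first. It had 0 reads in each of the 3 UC libraries at 24 h and 2, 10 and 3 at 2 weeks, whereas the kit libraries had 55, 13 and 82 against 45, 123 and 46. The summed UC level at 2 weeks was 39.5 CPM, from 15 reads, against a floor of 3 counts over the 369093 reads of the 24 h UC group, or 8.13 CPM. This floor leaves out the spread between pools, so it sets no lower bound on the fold change. The edgeR interaction had an unadjusted p of 0.00134 and an adjusted p of 0.627. In the test of UC alone it passed the filter only through the 2-week libraries, so no p of that test is given. MiR-199b-3p and miR-30c-5p followed, with kit minus UC differences of 2.61 and -1.28 (edgeR, adjusted p = 0.961 for both). The first became 2.22 (unadjusted p = 0.0511) without UC 24 h library 1, and the second -0.97 (unadjusted p = 0.0762) without kit 24 h library 2. MiR-30c-5p had 223, 245 and 199 CPM at 24 h and 278, 341 and 339 at 2 weeks with UC, without overlap, while the kit had 722, 1702 and 1425 against 440, 728 and 1166. Neither method alone reached the unadjusted threshold for it in edgeR.

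Among the cell-type lists, few members were under the unadjusted threshold, which 4.51% of all miRNAs passed as higher and 1.93% as lower. Of the 14 tested neuron miRNAs, 0 passed the unadjusted threshold in edgeR, limma-voom or DESeq2, 9 lay above 0 and the median was 0.14. MiR-124-3p and miR-9-5p, named as the defining markers, had log2 fold changes of 0.16 ± 0.21 and 0.12 ± 0.17. Activity-regulated miRNAs such as miR-132-3p (-0.14 ± 0.22) also had 0 of 6 under the threshold, with a median of -0.14, whereas DESeq2 put 1 of them lower. In the oligodendrocyte list miR-338-5p was lower, 3 of 5 lay above 0, and the median of 0.13 turned to -0.05 with the filter at 10 reads. The abundant miR-219a-2-3p had -0.11 ± 0.19. Vascular miRNAs had a median of 0.28, against 0.04 over all miRNAs, with 4 of 5 above 0 and 0 under the threshold (limma-voom gave 1). Of the 3 tested blood cell miRNAs, 2 lay above 0, and 1, miR-144-3p, was higher, a value that rested on kit 2-week library 2 as given above. The median of 1.31 was the value of miR-451a, and these 2 had only 52 (miR-144-3p) and 59 (miR-451a) reads in all. The best covered of the list, miR-486b-5p, with 1566 reads, lay below 0 (-0.20 ± 0.23). Of the 12 injury and microglia names, 10 had a read and 6 were tested, and 1, miR-21a-3p, was lower (median -0.04). MiR-155-5p and miR-223-3p, markers of activated microglia and of myeloid cells, had 4 and 20 reads in all 12 libraries and did not enter the test.

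**Figure D4:**
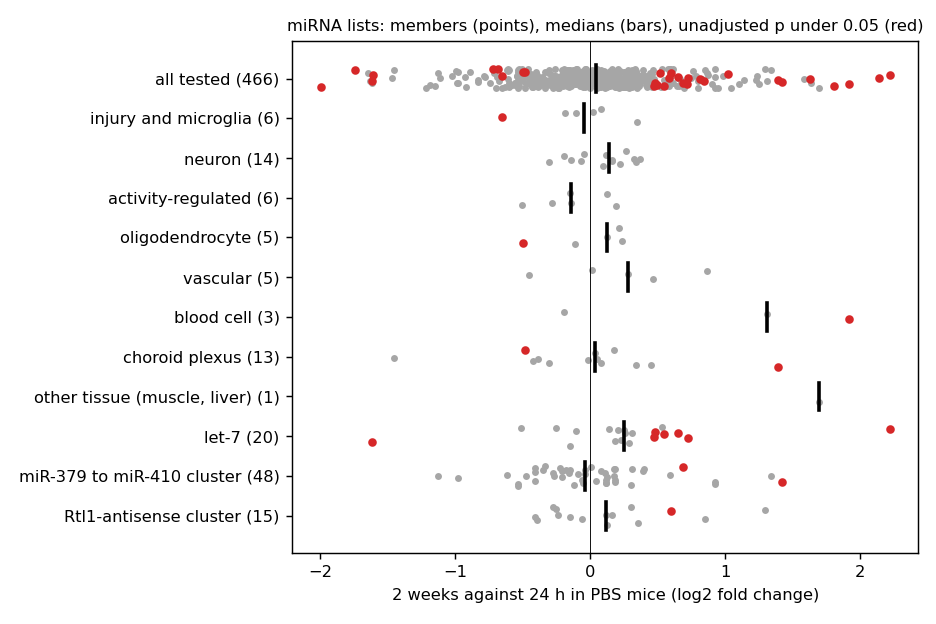
Log2 fold change between 2 weeks and 24 h of every tested miRNA in each list (points, with the number tested in parentheses), the list medians (black bars), and in red the miRNAs with an unadjusted p-value under 0.05. The let-7 list holds 7 red points of 20, and the median of all 466 is 0.04.

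Of the 6 miRNAs named by the study, miR-21a-3p was under the unadjusted threshold in the PBS mice, as given above, and the other 5 were not. MiR-146a-5p, a brake on inflammatory signaling, had 2402, 2089 and 2328 CPM at 24 h and 2108, 2225 and 2350 at 2 weeks with UC, and 610, 1408 and 1223 against 692, 1538 and 1471 with the kit. The groups overlapped in both methods and the log2 fold change was 0.08 (95% interval -0.36 to 0.52). MiR-107-3p gave 0.18 (-0.23 to 0.59). The reference miRNAs gave 0.28 for miR-25-3p (-0.26 to 0.82) and 0.34 for miR-92b-3p (-0.17 to 0.85), so that a shift of either by 0.5 log2 units in PBS mice lay within its interval.

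The time effect in PBS mice was then compared with that in KA mice in a fit of all 24 libraries, scaled together. At an unadjusted p-value under 0.05, 29 of 462 miRNAs differed (6.28%), 19 with a more positive value in PBS mice (4.11%) and 10 with a more negative one (2.16%), and 1 passed adjustment (0.216%). This was miR-146a-5p. With UC its mean was 2290 ± 122 CPM (SD, n = 3 libraries) at 24 h and 2371 ± 193 at 2 weeks in PBS mice, and 1693 ± 226 and 5238 ± 1117 in KA mice. With the kit the PBS means were 1052 ± 451 and 1218 ± 518, and those of KA mice 840 ± 206 and 4543 ± 3646. KA mice at 2 weeks were above all PBS libraries with UC, whereas the kit values at 2 weeks ranged from 1436 to 8557 and overlapped those of PBS mice. The log2 difference (PBS minus KA) was -1.86 ± 0.39 (edgeR, adjusted p = 0.0142). It was -1.49 (adjusted p = 0.0461) without the highest kit KA library, between -2.13 and -1.76 without any 1 PBS library, and its adjusted p was 0.123 with limma-voom.

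MiR-361-5p, miR-1957a, miR-184-3p and miR-107-3p came next (2.99, 1.45, -1.40 and 0.93, edgeR adjusted p = 0.394 for each). In the UC libraries of KA mice, miR-361-5p was at 21.0 to 32.8 CPM at 24 h and miR-1957a at 760 to 2921, the latter reaching above the highest PBS library. For miR-21a-3p, the UC mean was 182 ± 24.5 CPM at 24 h and 113 ± 36.9 at 2 weeks in PBS mice against 855 ± 214 and 158 ± 54.9 in KA mice. The kit means were 56.0 ± 23.6 and 39.4 ± 4.46 against 141 ± 70.5 and 65.5 ± 31.7. Levels at 2 weeks were thus below those at 24 h in all 4 pairs of group means, with a log2 difference between PBS and KA of 1.17 (edgeR, unadjusted p = 0.0113, not past adjustment).

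A-to-G changes, which mark deamination of adenosine to inosine by ADAR enzymes, were measured at the 6 sites named by the study, with positions counted from the 5′ end of the mature miRNA. None passed its test between times in exact permutation tests within method (smallest adjusted p = 0.72, and 0 of 6 at an unadjusted p under 0.05). In miR-3099-3p, position 7 was edited in 77.0 to 93.0% of reads at 24 h (median 86.9%) and 81.4 to 94.0% at 2 weeks (median 89.6%), from 161 to 729 reads a library, a difference of 2.61 percentage points over methods (exact p = 0.12). In miR-378a-3p, position 16 was edited in 40.7 to 64.3% of reads at 24 h (median 52.6%) and 47.0 to 70.1% at 2 weeks (median 52.4%), with an exact p of 0.53. The UC libraries were above the kit libraries at both times at this site and at position 7 of miR-3099-3p. Position 5 of miR-411-5p lay at 16.4 to 24.4% and 13.2 to 25.7%, and position 6 of miR-376b-3p at 70.0 to 90.0% and 64.3 to 79.2%, the latter from 11 libraries with as few as 10 reads, since UC 24 h library 1 had only 6 reads (6 edited) and was left out. Position 7 of miR-381-3p and position 14 of miR-421-3p stayed at or below 5.71% in 12 libraries and 15.9% in 10, since UC 24 h library 1 and UC 2-week library 3 had fewer than 10 reads of miR-421-3p.

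The arms of a hairpin were compared within each library, since their ratio does not depend on the scaling. This comparison was added after the values of miR-21a and miR-338 had been seen. Of 22 hairpins with at least 5 reads of each arm in every PBS library, 4 had an unadjusted p under 0.05 in exact permutation tests within method (18.2%), and 0 passed adjustment (smallest adjusted p = 0.11), where the smallest p the test can give is 0.005. With at least 3 reads, 4 of 30 did so, and with at least 10 reads, which leaves miR-21a out, 1 of 14.

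For miR-21a, the UC libraries held 12.3, 12.7 and 12.2 reads of the 5p arm per 3p read at 24 h and 39.3, 26.7 and 25.8 at 2 weeks. The kit libraries held 63.6, 71.5 and 78.1 against 88.5, 125 and 139. The ratio was higher at 2 weeks than at 24 h in every library of the same method, by 0.99 log2 units on average (exact p = 0.005, the smallest the test can give, adjusted p = 0.11), and by 0.95 to 1.02 without 1 replicate number. The 3p arm had only 6 to 27 reads a library. In KA mice the ratio was 10.0, 5.22 and 7.58 at 24 h against 45.9, 25.9 and 65.7 at 2 weeks with UC, and 102, 45.0 and 36.8 against 219, 178 and 196 with the kit, a difference of 2.19 log2 units (exact permutation p = 0.005).

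**Figure D5:**
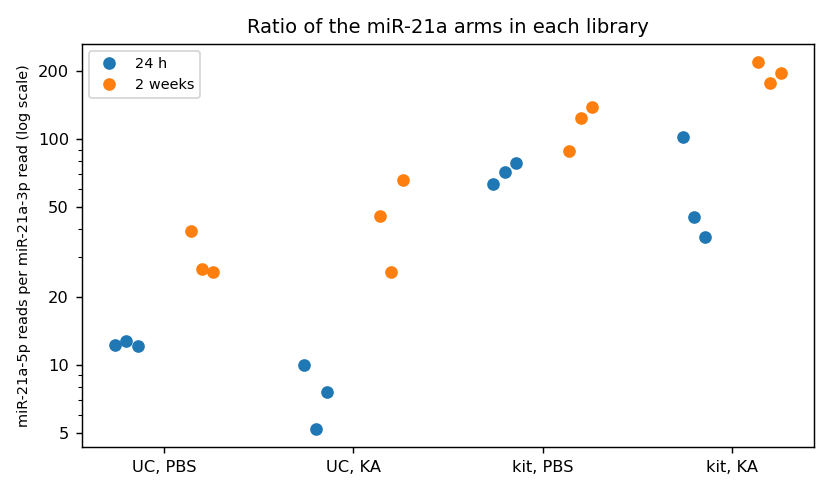
Reads of miR-21a-5p per read of miR-21a-3p in each of the 24 libraries, on a log scale, at 24 h (blue) and 2 weeks (orange), by extraction method and injected compound. Within each of the 4 pairs every 2-week library lies above every 24 h library.

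For miR-338, the UC libraries held 0.764, 0.891 and 0.605 reads of the 5p arm per 3p read at 24 h and 0.552, 0.453 and 0.583 at 2 weeks, without overlap. The kit libraries held 0.749, 0.416 and 0.887 against 0.318, 0.258 and 0.513, with overlap. The difference was -0.70 log2 units (exact p = 0.02, adjusted p = 0.138), and -0.84 in KA mice (exact permutation p = 0.03). The other hairpins under the unadjusted threshold were miR-673 (0.63, exact p = 0.02) and miR-369 (-0.74, exact p = 0.025), for which KA mice gave -0.15 and 0.38 (exact permutation p = 0.75 and 0.15).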

How the data were processed

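Small RNA was sequenced (Illumina MiSeq) from RNase A-treated EEFs. The authors mapped trimmed reads to miRBase v21 hairpins with Chimira, and deposited raw read counts for every mature miRNA, 1 table a library, with a second table of counts per modification pattern. How reads matching several hairpins were assigned is not given in the sources used here. Samples were grouped by their labels. Counts were scaled by TMM and tested with edgeR 4.0.16 (quasi-likelihood) in R 4.3.3, for miRNAs with at least 1 read in 6 of the 12 libraries (3 of 6 for 1 method), with Benjamini-Hochberg adjustment over all tested. Limma 3.58.1 and DESeq2 1.42.0 were alternatives. CPM values are TMM-scaled over the 12 PBS libraries unless stated otherwise. P-values refer to the spread between pools and not between mice. In edgeR this spread was estimated with information shared across miRNAs, so a p-value need not reflect the spread of that miRNA among the 3 pools of a group. Exact tests permuted time within method (400 arrangements, smallest p 0.005). The edgeR fits were also run on simulated counts with the same spread in every miRNA, which cannot show the effect of a single outlying library.

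Members, lists and tests were chosen with earlier results of these data known. The rule for named miRNAs took, in the fit of both methods, those past adjustment and the 10 lowest p-values in each direction. It also took the 3 lowest p-values in each other fit, the 5 most abundant, 6 miRNAs of the study, and up to 4 lowest p-values per list. Not all of these are described above. Among those left out are miR-1224-5p, miR-30c-1-3p, miR-1247-3p, miR-340-3p and miR-192-5p (lower at 2 weeks) and miR-6481 and miR-191-3p (higher). Intervals rest on the same shared estimate of spread as the edgeR p-values. Low counts, from 85436 reads in the shallowest library, limit rare miRNAs.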

Additional observations from a re-analysis of the deposited data

Results flagged for a closer look

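The change of miR-146a-5p between 24 h and 2 weeks differed between PBS and KA mice in a test of that difference itself, with a log2 value of -1.86 (PBS minus KA, edgeR, adjusted p = 0.0142). In PBS mice alone the change was 0.08 (95% interval -0.36 to 0.52). The adjusted p of the difference was 0.123 with limma-voom and 0.0461 in edgeR without the highest kit KA library. Kit values of KA mice at 2 weeks overlapped those of PBS mice.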

How the results depend on the processing

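For named miRNAs, 1214 of the refitted values kept their direction and side of the unadjusted threshold, 126 were no longer past it, 54 newly passed it and 0 reversed while past it, and the 72 refits of the exact tests of library measures and editing kept their side. The 4 arm ratios at an exact p under 0.05 became 0 without replicate 1, 2 or 3, where the smallest possible p is 0.0556, and 1 with at least 10 reads. Counts of miRNAs moved more. The filter at 10 reads gave 15 miRNAs at the unadjusted threshold for both methods, 14 with UC, 9 with the kit, 5 for the method difference and 15 for PBS against KA, over fewer miRNAs tested, and 0 past adjustment with UC. Without a filter there were 30 with the kit, 23 for the method difference, and 2 past adjustment for PBS against KA. DESeq2 gave 13 with UC, 8 with the kit and 9 for the method difference, and 0 past adjustment with UC. Limma-voom gave 2 past adjustment with UC and 0 for PBS against KA. With UC, 3 passed adjustment with RLE factors, 2 with library size only and 0 in the fit of all 12 UC libraries. The UC counts of limma-voom and RLE factors include miR-361-5p, which passed the filter only through the 2-week libraries and is no support for a change. The cause of these shifts was not tested. Leaving out 1 library gave 17 to 38 unadjusted and 0 to 1 adjusted for both methods (17 without UC 24 h library 1, and miR-1957a past adjustment without kit 24 h library 1), 14 to 31 and 0 to 4 with UC, 9 to 33 and 0 with the kit (9 without kit 2-week library 2), 9 to 29 and 0 for the method difference, and 23 to 37 and 1 for PBS against KA.

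Whether the replicate numbers pair the libraries could not be decided, since each group held only 3 libraries. Deviations of same-numbered UC libraries correlated at 0.454, 0.216 and -0.237, and those of kit libraries at 0.625, -0.0121 and 0.256. Libraries of different numbers ranged from -0.576 up to 0.403 for UC, and for the kit from -0.549 up to 0.331. Not every library correlated best with its own number, which does not exclude pairing. With the replicate block, both methods together gave 44 miRNAs at the unadjusted threshold and 2 past adjustment (miR-1957a and miR-434-3p), UC 26 and 0, the kit 29 and 0, the method difference 18 and 0, and PBS against KA 31 and 1. Swapping time only within replicate numbers changed no call of the exact tests.

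Depth limits the rare miRNAs most. The median half-width of the 95% intervals was 0.85 log2 units over all miRNAs. The fit of the 6 UC libraries used 1 common spread for all miRNAs, so its p-values depend on that estimate.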
